A study of Homo sapiens with 24 samples.

Results

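Notch signalling passes a message between touching cells. A ligand of the Jagged or Delta-like family on one cell binds a NOTCH receptor on its neighbour, proteases then free the intracellular part of the receptor, and that fragment joins the DNA-binding protein RBPJ in the nucleus and switches on HES and HEY genes, which encode basic helix-loop-helix repressors. Fringe glycosyltransferases add sugars to the receptor and so change which ligands it answers to. In squamous epithelia the pathway is known for promoting differentiation, and in many tissues it works together with TGFβ.

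The 10 genes described here are the receptors NOTCH1, NOTCH2 and NOTCH3, the ligands JAG1, JAG2 and DLL1, the fringe enzyme LFNG and the targets HES1, HES4 and HEY1, out of 28206 genes with a value above 0 in some library. They were chosen by name, and the estimated counts and TPM (transcript abundance per length, with all transcripts of a library adding up to 1 fixed total) of their Ensembl transcripts were summed per gene. The RNA came from SK-MES-1, an established human squamous cell lung carcinoma line, here a single line in culture. All cells were serum-starved for 3 h. They were then left untreated or given TGFβ1 at 2 ng/ml, and total RNA was sequenced at 0, 8, 24 and 48 h, with 3 libraries in each of the 8 groups. The authors name a growth factor-depleted medium for the stimulation as well.

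The 24 libraries held 46613589 to 77964234 estimated counts each. SMAD7, PMEPA1, SKIL, LTBP2 and TGFBI, listed as a check of the TGFβ response, were each called higher with TGFβ1 at 8, 24 and 48 h and not at 0 h. Of the 11 squamous markers, 6 or 7 had a mean of at least 1 TPM in a group. Among them were TP63 (8.74 to 36.8 TPM over the group means), PKP1 (16.1 to 57.3 TPM) and SFN (67.5 to 312 TPM). KRT5, KRT14, KRT6A and DSG3 stayed at or below 0.0622 TPM in every group. The summed level of 7 fibroblast markers, most of it COL1A1, was 211 to 318 TPM in the untreated libraries and 2111 to 2409 TPM with TGFβ1 at 48 h. Over the group means COL1A2 stayed at or below 0.146 TPM and COL3A1 at or below 8.41 TPM. PDGFRA, DCN, PDGFRB and LUM reached at most 10.7, 12.2, 21.1 and 23.3 TPM, so the rise of the sum was in effect that of COL1A1. The 6 endothelial markers summed to at most 4.9 TPM. The 6 immune markers summed to 10.01 to 42.8 TPM, most of it CD68 (7.89 to 34.9 TPM over the group means), with PTPRC at 1.37 to 2.01 TPM and CD3E listed at 0 throughout. The part of these markers in the Notch results was not tested. In these bulk samples fewer cells of a type and less RNA per cell cannot be told apart. Replicate 2 at 0 h and at 24 h stood apart from its group in both arms, by more with TGFβ1. With TGFβ1 its chi-square per gene was 57.1 and 38.2 against the other 2 at 0 h (15.9 between those). At 24 h it was 44.6 and 33.9 (6.5 between those). In untreated cells it was 21.4 and 14 at 0 h (8.71 between the others) and 19.3 and 18.1 at 24 h (4.03). Results were therefore also computed without replicate 2 of both arms at those times. The names of the deposited tables carry 4 codes. Within an arm the 0 h and 8 h libraries share a code and the later ones share another, and no code occurs in both arms, so that the code and the arm cannot be told apart at any time. The changes of the arm difference from 0 to 8 h and from 24 to 48 h cancel what stayed constant between the codes, whereas the change from 8 to 24 h spans a change of codes in both arms.

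The promoters of the targets HES1 and HES4 carry the letters that RBPJ is known to bind. The 250 bases before the annotated start were taken from RefSeq (GRCh38.p14) for 8 of the 10 genes, HEY1 and DLL1 having no entry. TGGGAA, the RBPJ core, was searched on both strands. It was found at least once in 20.8% and at least 2 times in 2.9% of all 35116 windows of that length. The 250 bases before HES1 (chr3:194135898-194136147, plus strand) hold it 2 times in the same direction, from 84 and from 70 bases before the start. The HES4 window holds it once, from 76 bases before the RefSeq start (shown as chr1:1000163-1000347, minus strand). The HES4 gene as annotated in GENCODE (chr1:998962-1000172) reaches into this window and overlaps the match. By that annotation the match lies at the start of the gene and not upstream of it. The stretch shown stops just after the match. The JAG1 window (chr20:10674000-10674249, minus strand) holds none, and neither do those of NOTCH1, NOTCH2, NOTCH3 and JAG2. These 3 are shown because they belong to the target with the steadiest difference, the target with the opposite one and the ligand with the lowest adjusted p. Capitals mark TGGGAA.
HES1: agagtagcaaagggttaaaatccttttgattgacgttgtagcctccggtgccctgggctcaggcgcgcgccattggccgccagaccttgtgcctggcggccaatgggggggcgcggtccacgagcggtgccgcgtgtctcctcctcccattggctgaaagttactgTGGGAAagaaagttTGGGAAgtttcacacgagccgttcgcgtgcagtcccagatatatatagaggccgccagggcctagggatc
HES4: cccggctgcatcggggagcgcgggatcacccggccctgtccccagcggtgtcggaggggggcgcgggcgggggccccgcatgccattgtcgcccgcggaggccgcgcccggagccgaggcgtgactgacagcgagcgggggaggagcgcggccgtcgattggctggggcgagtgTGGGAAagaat
JAG1: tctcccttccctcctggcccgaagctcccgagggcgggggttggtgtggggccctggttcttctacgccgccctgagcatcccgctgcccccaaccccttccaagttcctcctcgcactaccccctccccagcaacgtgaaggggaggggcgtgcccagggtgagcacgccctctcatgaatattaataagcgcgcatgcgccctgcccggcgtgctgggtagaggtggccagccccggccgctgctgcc
The N-box letters CACNAG, to which HES repressors are known to bind, were found 3 times before HES1 and once before NOTCH3, and not before HES4, JAG1, JAG2, NOTCH1 or NOTCH2, against 32% of all windows with at least 1. The SMAD letters CAGAC were found once before HES1 and not before HES4, JAG1, JAG2, NOTCH1, NOTCH2 or NOTCH3, against 38% of all windows. The E-box CACGTG (6.34% of windows) and the AP-1 letters TGANTCA (6.57%) were in none of these promoters. LFNG has 2 windows in the table, neither of them at the start of the transcripts that made up most of its level. One of these holds TGGGAA once and CACNAG once, and the other holds CAGAC once, so that the RBPJ letters were not limited to the targets. The matches are a description of the letters and not of binding.

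In untreated cells at 0 h the levels spanned a wide range. NOTCH2 was the most abundant of the 9 measured genes at 48.5 ± 2.05 TPM (SD, n = 3), followed by HES1 at 30.2 ± 1.25, JAG1 at 25.3 ± 1.04, JAG2 at 15.4 ± 2.25 and HES4 at 14.8 ± 1.45. NOTCH3 stood at 7.64 ± 1.85 TPM, LFNG at 3.45 ± 0.92, HEY1 at 0.629 ± 0.0201 and DLL1 at 0.593 ± 0.131. The libraries of JAG2 and HES4 overlapped, as did those of HEY1 and DLL1, and all other neighbours in this order were separated. The sum for NOTCH1 holds only 1 of its 16 GENCODE transcripts, a retained-intron form (ENST00000491649), with 0 to 3 counts per library, and the canonical transcript is not among those summed. The level of NOTCH1 was therefore not measured by these sums, and the gene did not enter the test. The other 9 members passed the filter of 10 counts in at least 3 libraries.

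Differences between the arms were fitted with limma voom over all 17453 tested genes, and a gene was called where the Benjamini-Hochberg adjusted p over all of them was below 0.01. At 0 h none of the 9 members was called, as was 0% of all tested genes (0 at adjusted p below 0.01 and 800 at an unadjusted p below 0.05). At 8 h, 4 members were higher with TGFβ1 (NOTCH2, JAG1, HES1 and HEY1), where 9.12% of all genes were, and 1 was lower (NOTCH3), where 7.26% were. At 24 h, 5 members were higher, LFNG being added, against 15.4% of all genes, and NOTCH3 was lower, against 13.8%. At 48 h, 5 were higher (NOTCH3, JAG1, LFNG, HES1 and HEY1), against 16.1% of all genes, and 2 were lower (JAG2 and HES4), against 16.4%. Over the 3 times together, by a moderated F test, 8 of 9 were called, where 42.5% of all genes were, DLL1 being the exception. When 4 reference genes set the scale, 6 of 9 were called (JAG2, with an adjusted p of 0.015, and HES4, with 0.04, being lost), where 64.1% of all genes were. At 8, 24 and 48 h the median log2 difference of the 9 members was 0.29, 0.29 and 0.24, beside -0.02, -0.02 and -0.01 over all tested genes. Without the 4 libraries, 6, 7 and 8 members were called at the 3 times, beside 27.5%, 34.3% and 44.8% of all genes, which with all libraries were 16.4%, 29.3% and 32.6%. The scale matters for counts of all genes. Of the genes called at 24 h, 52.7% were higher with the main scaling, 91.5% when 4 reference genes set the scale and 34.2% with library totals, while the members split 5 higher and 1 lower, 5 and 1, and 4 and 2. At 48 h the members split 5 and 2, 6 and 1, and 4 and 2 under these scalings, and over the 3 times 5 and 3, 6 and 0, and 5 and 3.

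**Figure D1:**
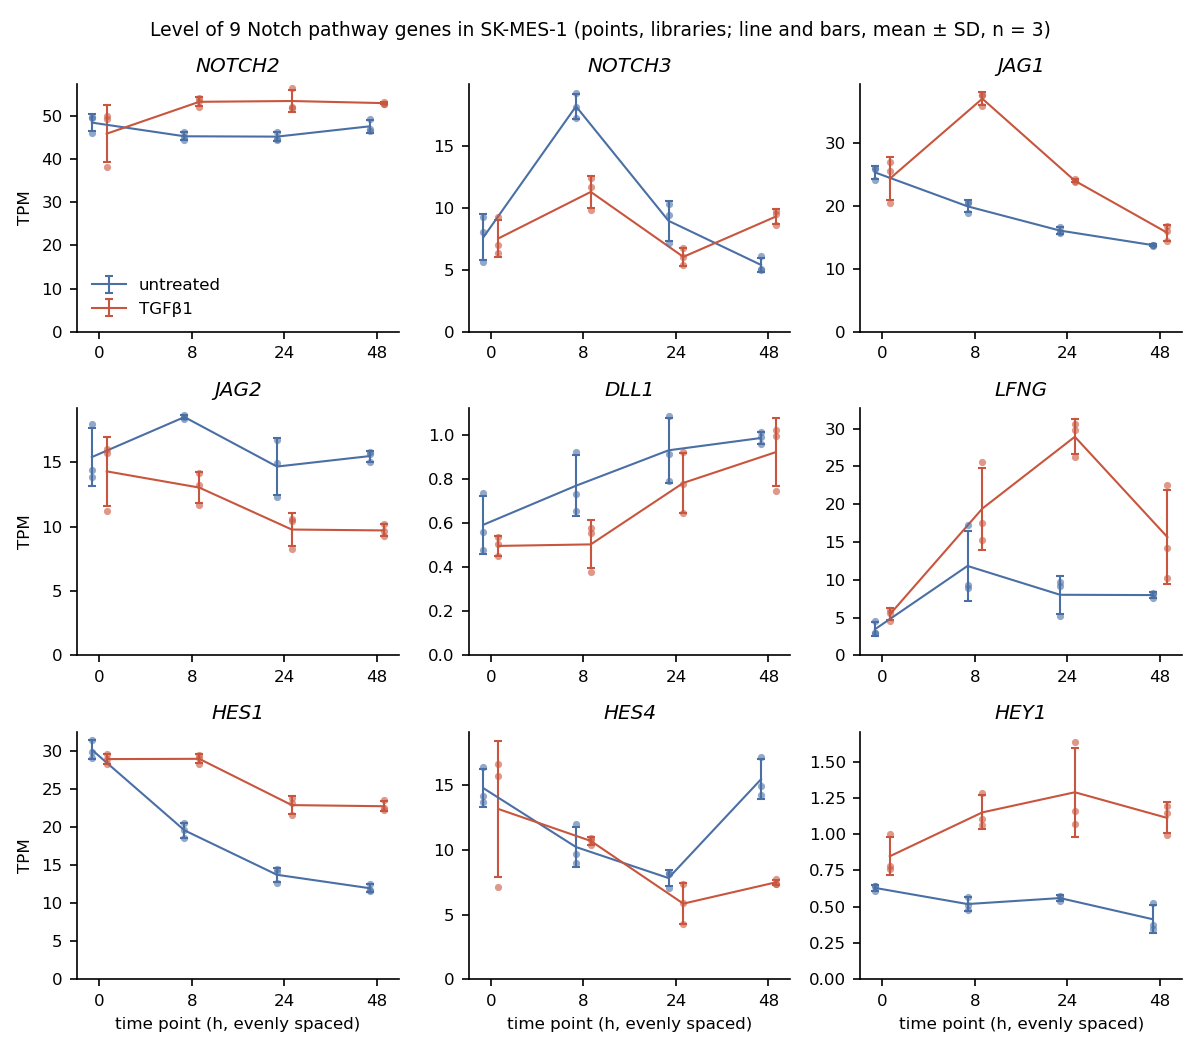
Level in TPM (vertical axis, from 0) of the 9 measured genes against time point (evenly spaced), with each library as a point and the mean ± SD of 3 libraries as line and bars, blue for untreated and red for TGFβ1. HES1 stayed between 28.3 and 29.6 TPM with TGFβ1 at 0 and 8 h while it fell in untreated cells, JAG1 peaked at 8 h with TGFβ1, and the 2 arms crossed for NOTCH3 between 24 and 48 h.

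The receptors moved in different ways. NOTCH2 (ENSG00000134250, chr1:119911553-120100779, minus strand, GRCh38 with GENCODE 44 as for all positions of genes below), the more abundant of the 2 receptors measured here, stood at 46.3, 45.2 and 44.5 TPM in untreated cells at 8 h and 53.6, 52.2 and 54.3 TPM with TGFβ1. All 3 treated libraries were above all 3 untreated ones at 8, 24 and 48 h, by small steps. The log2 difference was 0.29 (SE 0.05, adjusted p = 0.00033) at 8 h and 0.29 (SE 0.06, adjusted p = 0.00025) at 24 h, and 0.16 (SE 0.06, adjusted p = 0.025) at 48 h. From 0 to 8 h the difference itself rose by 0.38 (SE 0.08, adjusted p = 0.0017), a call lost with library totals, on log2 TPM values and with only the groups compared (0.32 to 0.38, adjusted p = 0.01 to 0.046). On log2 TPM values the calls at 8 and 24 h were lost (adjusted p = 0.021 and 0.011), as was that at 24 h with library totals (adjusted p = 0.011). At 48 h the difference was called without treated replicate 1 of 0 h (adjusted p = 0.00074), the library with the lowest NOTCH2 level, 38.3 TPM. NOTCH2 shares near-identical sequence with NOTCH2NLA, whose level went from 30.4 TPM in untreated cells at 48 h to 52.2 TPM with TGFβ1, so the split of reads between the copies is uncertain. One transcript, NOTCH2-201, held 95.6% to 99.2% of the NOTCH2 level in every library.

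NOTCH3 (ENSG00000074181, chr19:15159038-15200995, minus strand), a receptor best known from vascular smooth muscle, rose in both arms from 0 to 8 h and rose less with TGFβ1. Untreated cells went from 9.26, 5.63 and 8.03 TPM at 0 h to 17.2, 18.1 and 19.3 TPM at 8 h, a log2 rise of 1.37 (SE 0.14, adjusted p = 1.7e-07). With TGFβ1 the libraries read 6.38, 6.97 and 9.24 TPM at 0 h and 9.85, 12.4 and 11.7 TPM at 8 h, a log2 rise of 0.68 (SE 0.15, adjusted p = 0.00065). The 2 arms overlapped at 0 h and were apart at 8 h, where the log2 difference was -0.70 (SE 0.14, adjusted p = 0.00052).

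The order of the arms then turned for NOTCH3. At 24 h untreated cells measured 10.3, 7.15 and 9.43 TPM and treated cells 6.76, 6.01 and 5.36 TPM, a log2 difference of -0.80 (SE 0.15, adjusted p = 0.00019). At 48 h the untreated libraries were at 6.08, 5.08 and 5.02 TPM and the treated ones at 9.76, 9.55 and 8.6 TPM, all 3 above, with a log2 difference of 0.88 (SE 0.15, adjusted p = 5.6e-05). The difference changed by 1.68 between 24 and 48 h (SE 0.21, adjusted p = 8.7e-06), and by 1.61 (adjusted p = 3.7e-09) without the 4 libraries. Both arms contributed, the untreated one with a log2 change of -0.83 (SE 0.15, adjusted p = 0.00014) and the treated one with 0.85 (SE 0.15, adjusted p = 0.00012). From 0 to 8 h the change of the difference was -0.69 (adjusted p = 0.027), called without treated replicate 2 of 0 h (-0.87, adjusted p = 0.002) or of 24 h (adjusted p = 0.009). The call at 24 h was lost with counts corrected for transcript length (log2 difference -0.53, adjusted p = 0.015), on log2 TPM values and with only the groups compared (adjusted p = 0.012). NOTCH3-201, the canonical form, made up 52.6% to 94.2% of the level of a library.

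Of the ligands, JAG1 (ENSG00000101384, chr20:10637684-10673999, minus strand), which activates NOTCH receptors and is mutated in Alagille syndrome, had the lowest adjusted p at 8 h. The untreated libraries fell from 25.8, 24.1 and 26 TPM at 0 h to 20.4, 20.5 and 18.8 TPM at 8 h. With TGFβ1 they went from 20.5, 25.4 and 26.9 TPM to 37.5, 37.6 and 35.8 TPM. The arms overlapped at 0 h and lay far apart at 8 h, with a log2 difference of 0.95 (SE 0.04, adjusted p = 2e-13), a fold of 1.93. Relative to 0 h, treated cells had risen by 0.57 on the log2 scale (SE 0.04, adjusted p = 4.8e-10) and untreated cells had changed by -0.41 (SE 0.04, adjusted p = 2.1e-07).

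The JAG1 difference narrowed afterwards. At 24 h the libraries read 16.6, 15.8 and 15.7 TPM untreated and 23.7, 24 and 24.2 TPM treated, and at 48 h 13.8, 13.8 and 13.6 TPM untreated and 15.9, 16.8 and 14.3 TPM treated. The arms stayed separated at both times. The log2 difference was 0.62 (SE 0.04, adjusted p = 1.6e-10) at 24 h and 0.24 (SE 0.05, adjusted p = 0.00016) at 48 h. Its change was -0.33 from 8 to 24 h (SE 0.06, adjusted p = 0.00078) and -0.38 from 24 to 48 h (SE 0.06, adjusted p = 0.00021). The call at 48 h was lost on log2 TPM values (log2 difference 0.19, adjusted p = 0.061) and with length-scaled counts (adjusted p = 0.02). The change from 8 to 24 h was -0.07 (adjusted p = 0.57) when 4 reference genes set the scale and was lost with length-scaled counts and on log2 TPM values (adjusted p = 0.024 to 0.089), and that from 24 to 48 h was lost on log2 TPM values (adjusted p = 0.022 and 0.024). JAG1-201 held 72.8% to 92.3% of the level of a library.

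JAG2 (ENSG00000184916, chr14:105140982-105168824, minus strand), a second Jagged ligand, went the other way from JAG1. At 8 h untreated cells read 18.7, 18.4 and 18.6 TPM and treated cells 14.2, 11.7 and 13.2 TPM. At 24 h they read 16.8, 12.3 and 14.9 TPM against 10.4, 8.3 and 10.6 TPM, and at 48 h 15.8, 15.6 and 15 TPM against 10.2, 9.63 and 9.29 TPM. Every treated library was below every untreated one at these 3 times. The log2 difference was -0.44 at 8 h (SE 0.14, adjusted p = 0.03) and -0.48 at 24 h (SE 0.15, adjusted p = 0.017), both short of the threshold, and -0.65 at 48 h (SE 0.16, adjusted p = 0.0019), which passed. Without the 4 libraries it passed at 8 h (-0.44, adjusted p = 6.4e-06) and at 24 h (-0.42, adjusted p = 0.00012) too, as it did at both without treated replicate 2 of 0 h alone (adjusted p = 0.0054 and 0.0029) and at 24 h without untreated replicate 2 of that time (-0.59, adjusted p = 0.0059). It also passed at both times with library totals and on log2 TPM values (adjusted p = 0.0019 to 0.0092). When treated replicate 3 or untreated replicate 1 of the 48 h groups was left out, the call at 48 h was lost (adjusted p = 0.012 and 0.01), as it was with the 4 reference genes (-0.30, adjusted p = 0.046).

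Much of the JAG2 signal was in retained-intron transcripts. JAG2-201, the canonical one, held 21.4% to 31.1% of the level, while the retained-intron forms ENST00000553051 and ENST00000546616 held 30.6% to 42.4% and 19% to 29.6%. All 3 were lower with TGFβ1 at 48 h in their group means, JAG2-201 with 2.45 ± 0.479 TPM against 3.77 ± 0.481 TPM (SD, n = 3). DLL1 (ENSG00000198719, chr6:170282206-170306565, minus strand), a Delta-like ligand, lay at 0.379 to 1.09 TPM and 24 to 86 counts in all libraries. Its log2 difference was -0.14 (95% interval -0.49 to 0.21, adjusted p = 0.62) at 8 h and -0.17 (-0.47 to 0.14, adjusted p = 0.39) at 48 h. Its treated TPM values at 8 h (0.577, 0.379 and 0.557) were all below the untreated ones (0.655, 0.734 and 0.922), which the counts of the sum did not show. The gene overlaps FAM120B on the opposite strand, which averaged 11.6 TPM, and how strand entered the counting is not given in the sources used here.

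LFNG (ENSG00000106003, chr7:2512529-2529177, plus strand), the lunatic fringe enzyme, showed the highest fitted fold of the 9 members, at 24 h, and libraries that differed between replicates. It rose from 0 to 8 h in both arms, by 1.68 on the log2 scale in untreated cells (SE 0.34, adjusted p = 0.00052) and by 1.86 with TGFβ1 (SE 0.29, adjusted p = 2.6e-05). The change of the arm difference over those 8 h was 0.18 (95% interval -0.76 to 1.12, adjusted p = 0.88). At 8 h the libraries measured 9.29, 17.2 and 8.95 TPM untreated and 17.4, 25.5 and 15.3 TPM treated. The arms overlapped there, since untreated replicate 2 was above treated replicate 3, and the log2 difference was 0.81 (SE 0.25, adjusted p = 0.022). Without that untreated library it was 1.10 (adjusted p = 0.0042).

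At 24 h the LFNG libraries read 5.17, 9.15 and 9.72 TPM untreated and 26.2, 29.9 and 30.6 TPM treated, fully apart, with a log2 difference of 2.03 (SE 0.27, adjusted p = 2.9e-06), a fold of 4.08. At 48 h the values were 8.15, 7.52 and 8.24 TPM untreated and 14.2, 22.5 and 10.3 TPM treated, with a log2 difference of 0.99 (SE 0.28, adjusted p = 0.0074). That call was lost without treated replicate 1 or 2 or any untreated library of 48 h (adjusted p = 0.016 to 0.063), and without treated replicate 2 the value was 0.69 (adjusted p = 0.063). It was also lost under 6 other settings, among them library totals, no filter and log2 TPM values (0.83 to 0.98, adjusted p = 0.011 to 0.018). At 0 h the treated libraries (6.04, 4.52 and 5.67 TPM) already lay above the untreated ones (2.91, 4.51 and 2.93 TPM), the lowest of them by under 0.01 TPM, with a log2 difference of 0.63 (95% interval -0.14 to 1.41, adjusted p = 1). The share of the level in LFNG-201 ranged from 23% to 79.4% and that in LFNG-202 from 1.59% to 72% of a library, so the split between these 2 coding transcripts was not stable between replicates. LFNG-201 alone averaged 12.7 ± 2.07 TPM with TGFβ1 at 24 h and 2.78 ± 0.608 TPM without it (SD, n = 3).

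**Figure D2:**
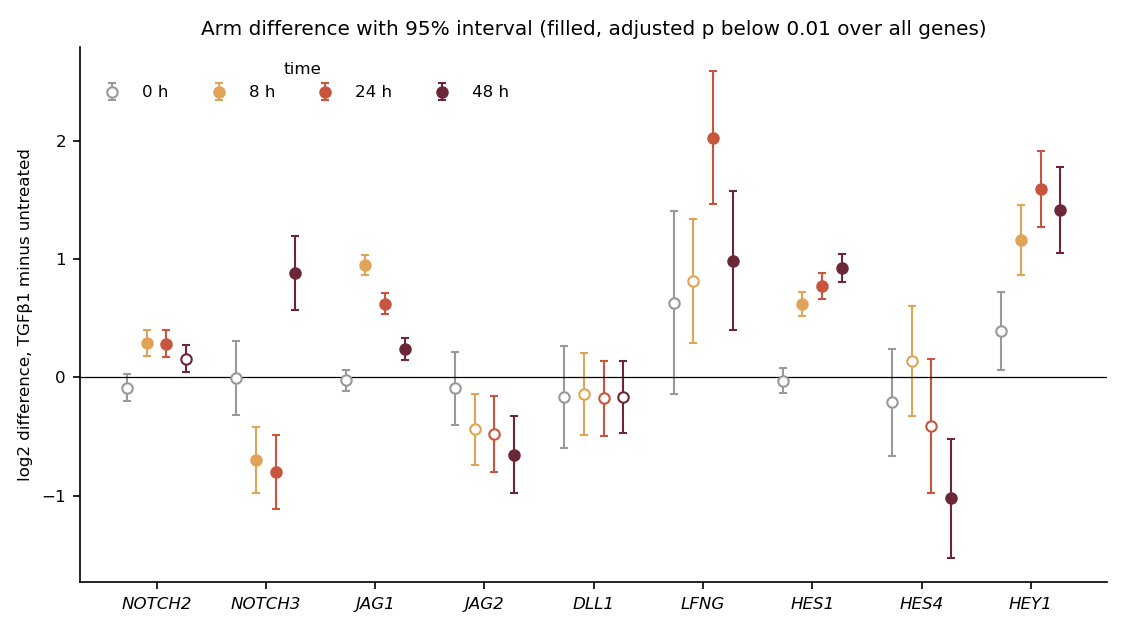
Log2 difference between TGFβ1 and untreated cells (vertical axis) for each measured gene at 0, 8, 24 and 48 h, with 95% intervals, filled where the adjusted p over all tested genes was below 0.01. The difference of HES1 went from 0.62 at 8 h to 0.93 at 48 h, that of JAG1 shrank from 0.95 to 0.24, that of NOTCH3 changed sign from -0.80 to 0.88, and no member was filled at 0 h.

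Among the targets, HES1 (ENSG00000114315, chr3:194136148-194138732, plus strand), the repressor that is the most widely used readout of the pathway, fell in untreated cells and stayed higher with TGFβ1. Untreated libraries measured 29.1, 31.5 and 29.9 TPM at 0 h, 19.6, 20.6 and 18.6 TPM at 8 h, 12.7, 14.4 and 14.1 TPM at 24 h and 12.6, 11.7 and 11.6 TPM at 48 h. With TGFβ1 they read 28.3, 29 and 29.6 TPM at 0 h, 29.5, 28.3 and 29.1 TPM at 8 h, 23.9, 23.2 and 21.6 TPM at 24 h and 23.5, 22.5 and 22.3 TPM at 48 h. The arms overlapped at 0 h and every treated library was above every untreated one afterwards. The mean at 48 h was 0.397 times its own 0 h mean in untreated cells and 0.786 times with TGFβ1.

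The log2 difference of HES1 was 0.62 (SE 0.05, adjusted p = 3.7e-09) at 8 h, 0.77 (SE 0.05, adjusted p = 1.8e-10) at 24 h and 0.93 (SE 0.06, adjusted p = 1.3e-11) at 48 h. Between 0 and 8 h the difference rose by 0.65 (SE 0.07, adjusted p = 7.9e-07). In that interval untreated cells changed by -0.67 on the log2 scale (SE 0.05, adjusted p = 1.6e-09), whereas the change with TGFβ1 was -0.03 (95% interval -0.13 to 0.08, adjusted p = 0.7). Between 24 and 48 h untreated cells changed by -0.24 (SE 0.06, adjusted p = 0.0026), a sign that turned to 0.16 (adjusted p = 0.042) when 4 reference genes set the scale, and treated cells by -0.08 (adjusted p = 0.24), which turned to 0.31 (adjusted p = 0.00017). The untreated call was also lost without replicate 2 or 3 at either time (adjusted p = 0.011 to 0.017). HES1-201 held 92.1% to 98.4% of the level, and its promoter is the one with the pair of RBPJ letters printed above.

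HES4 (ENSG00000188290, chr1:998962-1000172, minus strand), a related repressor, had a single called difference, of the opposite sign. Untreated libraries read 16.4, 14.2 and 13.8 TPM at 0 h, 8.16, 7.08 and 8.23 TPM at 24 h and 17.2, 14.9 and 14.2 TPM at 48 h. With TGFβ1 they read 16.7, 7.13 and 15.7 TPM at 0 h, 7.39, 4.26 and 5.87 TPM at 24 h and 7.38, 7.72 and 7.37 TPM at 48 h. The low values at 0 and 24 h were both replicate 2, the libraries that stood apart. The arms overlapped at 0, 8 and 24 h and were apart at 48 h, where the log2 difference was -1.02 (SE 0.24, adjusted p = 0.0016). The call over the 3 times together (adjusted p = 0.006) was lost without any 1 of the 6 libraries of 48 h (adjusted p = 0.01 to 0.024) and with coding transcripts only (adjusted p = 0.012).

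Between 24 and 48 h untreated cells raised HES4 by 0.93 on the log2 scale (SE 0.23, adjusted p = 0.0027), and the change with TGFβ1 was 0.32 (95% interval -0.26 to 0.91, adjusted p = 0.41). The difference between these 2 changes was -0.61 (95% interval -1.37 to 0.15, adjusted p = 0.3), and -0.72 (adjusted p = 0.01) without the 4 libraries. The untreated rise was lost when only protein-coding transcripts were summed (0.74, adjusted p = 0.024) and without untreated replicate 2 at 24 h or untreated replicate 1 at 48 h (adjusted p = 0.014 and 0.015). The retained-intron form HES4-203 made up 31.1% to 38.8% of the untreated level at 48 h and 16.1% to 23.9% at 0 h.

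HEY1 (ENSG00000164683, chr8:79762371-79767857, minus strand), a repressor of the HEY family, was low throughout, at 25 to 127 counts per library, and higher with TGFβ1 at each time after 0 h. At 8 h the libraries measured 0.475, 0.514 and 0.565 TPM untreated and 1.06, 1.11 and 1.28 TPM treated. At 24 h they measured 0.572, 0.568 and 0.538 TPM against 1.07, 1.64 and 1.16 TPM, and at 48 h 0.347, 0.371 and 0.522 TPM against 1.15, 0.992 and 1.2 TPM. The arms did not overlap at any time, 0 h included, where the values were 0.606, 0.64 and 0.642 TPM against 0.783, 0.999 and 0.761 TPM. HEY1-202, the canonical form, held 33.8% to 100% of the level of a library. At 24 h it held 50.8% of the untreated group mean and 85.5% of the treated one. The ratio of the mean TPM at that time was 2.31, beside a fitted fold of 3.02.

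The log2 difference of HEY1 was 0.39 (SE 0.16, adjusted p = 1) at 0 h, 1.16 (SE 0.14, adjusted p = 1.7e-06) at 8 h, 1.59 (SE 0.15, adjusted p = 3.3e-08) at 24 h and 1.42 (SE 0.17, adjusted p = 8e-07) at 48 h. The change of the difference from 0 to 8 h was 0.77 (SE 0.21, adjusted p = 0.017), called without treated replicate 2 of 24 h (adjusted p = 0.0065) or untreated replicate 1 of 0 h (0.89, adjusted p = 0.0096). Within the TGFβ1 arm HEY1 rose by 0.54 from 0 to 8 h (SE 0.13, adjusted p = 0.0021), a call lost by DESeq2 (adjusted p = 0.013), with length-scaled counts, on log2 TPM values, with only the groups compared (adjusted p = 0.019 to 0.05) and without treated replicate 3 at 8 h (adjusted p = 0.013).

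Taking the changes of the difference as one set, 3 of 9 members passed from 0 to 8 h (NOTCH2, JAG1 and HES1, all upward) beside 7.88% of all genes, 1 from 8 to 24 h (JAG1, downward) beside 6.69%, and 2 from 24 to 48 h (NOTCH3 upward and JAG1 downward) beside 9.11%. These changes use the same libraries as the differences at each time. Within the untreated arm, 4 members passed from 0 to 8 h (NOTCH3 and LFNG upward, JAG1 and HES1 downward) beside 25.9% of all genes, and 4 from 24 to 48 h (HES4 upward, NOTCH3, JAG1 and HES1 downward) beside 28.4%. Within the TGFβ1 arm, 5 passed from 0 to 8 h (NOTCH2, NOTCH3, JAG1, LFNG and HEY1, all upward) beside 33.8%, and 4 from 24 to 48 h (NOTCH3 upward, JAG1, LFNG and HEY1 downward) beside 25.8%. Several of the treated calls were lost when 1 library was left out. The NOTCH2 rise from 0 to 8 h (0.20, adjusted p = 0.0043) was lost without treated replicate 1 of 0 h (0.11, adjusted p = 0.023). It was also lost without any 1 treated library of 8 h, with a value of 0.20 to 0.21 (adjusted p = 0.012 to 0.018). Under 7 other settings it was lost too (adjusted p = 0.01 to 0.099). The LFNG change from 24 to 48 h (-0.99, adjusted p = 0.0032) was lost without treated replicate 3 of 24 h or replicate 1 or 3 of 48 h (adjusted p = 0.014 to 0.031), and that of HEY1 (-0.47, adjusted p = 0.0072) without treated replicate 2 or 3 of 24 h or any treated library of 48 h (adjusted p = 0.011 to 0.042). Calls absent here were gained without treated replicate 2 of 0 h for HES4, which then fell from 0 to 8 h in both arms (-0.56, adjusted p = 0.001, untreated and -0.62, adjusted p = 0.00071, treated). NOTCH2 in untreated cells (-0.17, adjusted p = 0.018) was called without treated replicate 1 of 0 h (adjusted p = 0.00043) or untreated replicate 2 of 0 h (-0.21, adjusted p = 0.0098).

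**Figure D3:**
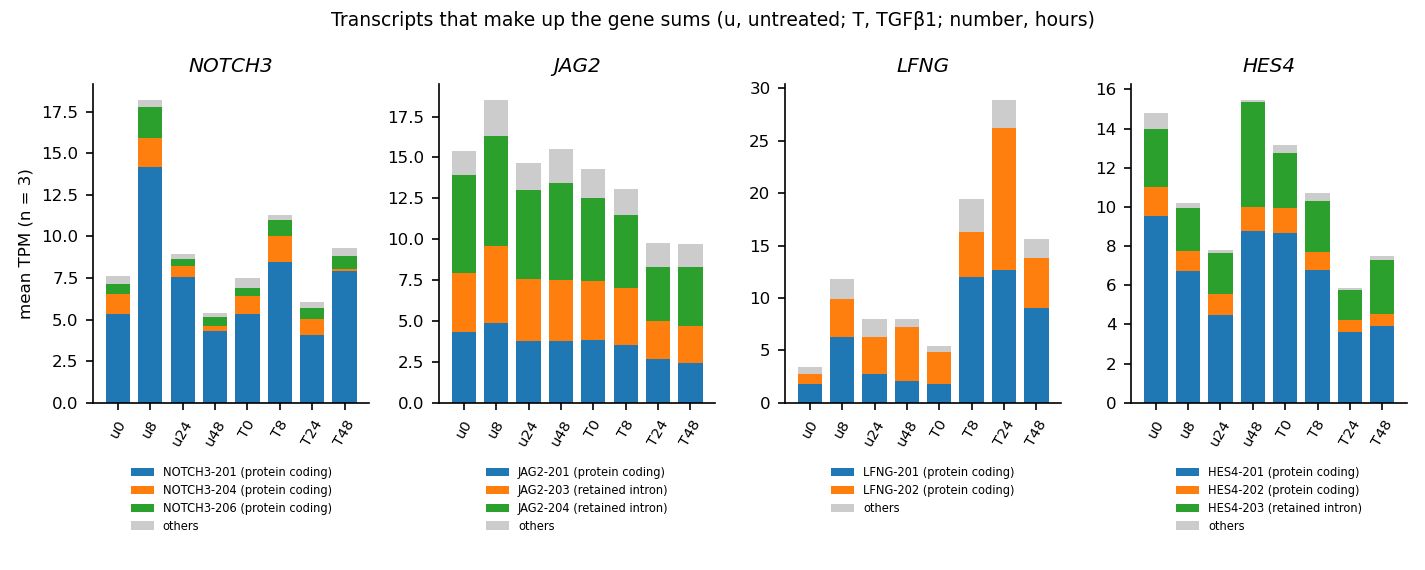
Mean TPM of 3 libraries (vertical axis) of the transcripts that held at least 10% of the gene sum in some group, stacked for NOTCH3, JAG2, LFNG and HES4 in the 8 groups (u, untreated, and T, TGFβ1, with hours), with all remaining transcripts in grey. JAG2 was spread over a coding and 2 retained-intron forms in every group, and LFNG was split between 2 coding forms in proportions that differed from group to group.

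Of 71 other genes of the pathway, 67 were tested. At 8 h, 9 were higher and 4 lower, at 24 h 15 and 15, and at 48 h 18 and 17. These are 19.4%, 44.8% and 52.2% of the list, beside 16.4%, 29.3% and 32.6% of all genes, and their median log2 difference was 0.04, 0.02 and 0.07, beside -0.02, -0.02 and -0.01 over all genes. Over the 3 times together 41 were called (61.2%, beside 42.5% of all genes), 21 with a positive and 20 with a negative mean difference. The split was 44 and 6 when 4 reference genes set the scale and 17 and 25 with library totals. The genes named below, other than DNER, are among those called over the 3 times with a mean log2 difference of at least 0.5 in size.

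Of these genes, a protease had the highest log2 difference of the steps upstream of the nucleus. FURIN, the proprotein convertase that cuts NOTCH receptors on their way to the surface, went from 61.1 ± 2.62 TPM in untreated cells to 161 ± 4.08 TPM with TGFβ1 at 8 h and from 71.6 ± 1.14 to 163 ± 5.61 TPM at 48 h (SD, n = 3). Its log2 difference was 1.45 (SE 0.10, adjusted p = 2.9e-10) at 8 h and 1.20 (SE 0.10, adjusted p = 2.2e-09) at 48 h. Of the 9 proteases, 5 were higher and 2 lower over the 3 times. MIB1, the ubiquitin ligase that prepares ligands for endocytosis, rose with TGFβ1 to 71.1 ± 2.98 TPM at 48 h against 44.1 ± 0.49 TPM (log2 difference 0.77, adjusted p = 8.2e-07), in a group of 15 endocytosis and turnover genes with 2 higher and 4 lower.

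Of the 5 other ligands, 4 were tested, and 1 was higher and 2 lower over the 3 times. DNER, a membrane protein described as a non-canonical NOTCH ligand and chosen here after its values were seen, was the most abundant of them, at 19.8 ± 0.137 TPM in untreated cells at 0 h and at 6.18 ± 0.262 TPM without and 11.4 ± 0.398 TPM with TGFβ1 at 48 h (SD, n = 3). It was called higher at all 3 times, with a log2 difference of 0.21 (adjusted p = 0.0031) at 8 h, 0.34 (adjusted p = 5.1e-05) at 24 h and 0.90 (SE 0.06, adjusted p = 3.4e-11) at 48 h. The remaining ligands were low. The libraries of DLL3, a ligand that acts inside the cell, were already apart at 0 h. They lay at 1.96 to 2.34 TPM untreated and 1.49 to 1.93 TPM treated. DLL3 was not called at 8 h (-0.33, adjusted p = 0.051). It had a log2 difference of -0.64 (adjusted p = 0.0016) at 24 h and of -0.54 at 48 h (SE 0.14, adjusted p = 0.0031). DLK2, a Delta-like protein without the usual receptor-binding domain, had one of -0.99 at 24 h (SE 0.24, adjusted p = 0.0022) at 19.3 to 70 counts. DLK2 was not called at 8 h (-0.68, adjusted p = 0.03) or 48 h (-0.14, adjusted p = 0.73). The 5 glycosylation genes counted 3 higher and 0 lower over the 3 times, with mean log2 differences from -0.07 to 0.45. In the nucleus, 2 of 9 tested genes of the RBPJ complex were higher and 3 lower, with mean log2 differences from -0.32 to 0.50. Of 14 co-repressor genes, 5 were higher and 3 lower. TLE4, a Groucho co-repressor that HES proteins recruit, had a log2 difference of -1.35 (SE 0.09, adjusted p = 6.8e-11) at 48 h. The TLE4 libraries were already apart at 0 h, at 2.17 to 2.49 TPM untreated and 1.26 to 1.59 TPM treated.

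The other targets were split, with 3 of 11 tested higher and 6 lower over the 3 times. CCND1, the G1 cyclin, had a log2 difference of 1.19 (SE 0.04, adjusted p = 1.3e-15) at 24 h. It was 0.73 (adjusted p = 4.7e-12) at 8 h and 0.31 (adjusted p = 1.3e-06) at 48 h. At 8, 24 and 48 h CCND1 averaged 212, 93.9 and 189 TPM untreated and 354, 201 and 227 TPM treated. CDKN1A, the cyclin-dependent kinase inhibitor p21, had a log2 difference of 1.61 (SE 0.06, adjusted p = 7.8e-15) at 48 h. At 0, 8, 24 and 48 h it averaged 163, 63.5, 76.7 and 48.3 TPM untreated and 153, 83.6, 115 and 145 TPM treated. GATA3, a transcription factor, had a log2 difference of -0.78 at 48 h (SE 0.09, adjusted p = 1.5e-07). Its means at 0 and 48 h were 4.98 and 10.2 TPM untreated and 4.98 and 5.53 TPM treated. HEY2, the closest relative of HEY1, was at 1 to 2 counts per library with TGFβ1 at 48 h and at 11 to 12 without it, a ratio of 0.13 per total count (exact 95% interval 0.0335 to 0.362, counting error only) from 4 and 35 counts. HEY1 and HEY2 thus had called differences of opposite sign at 48 h, HEY2 with an adjusted p of 0.00011. HEY2 was not called at 8 h (0.38, adjusted p = 0.4) or 24 h (0.06, adjusted p = 0.9).

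**Figure D4:**
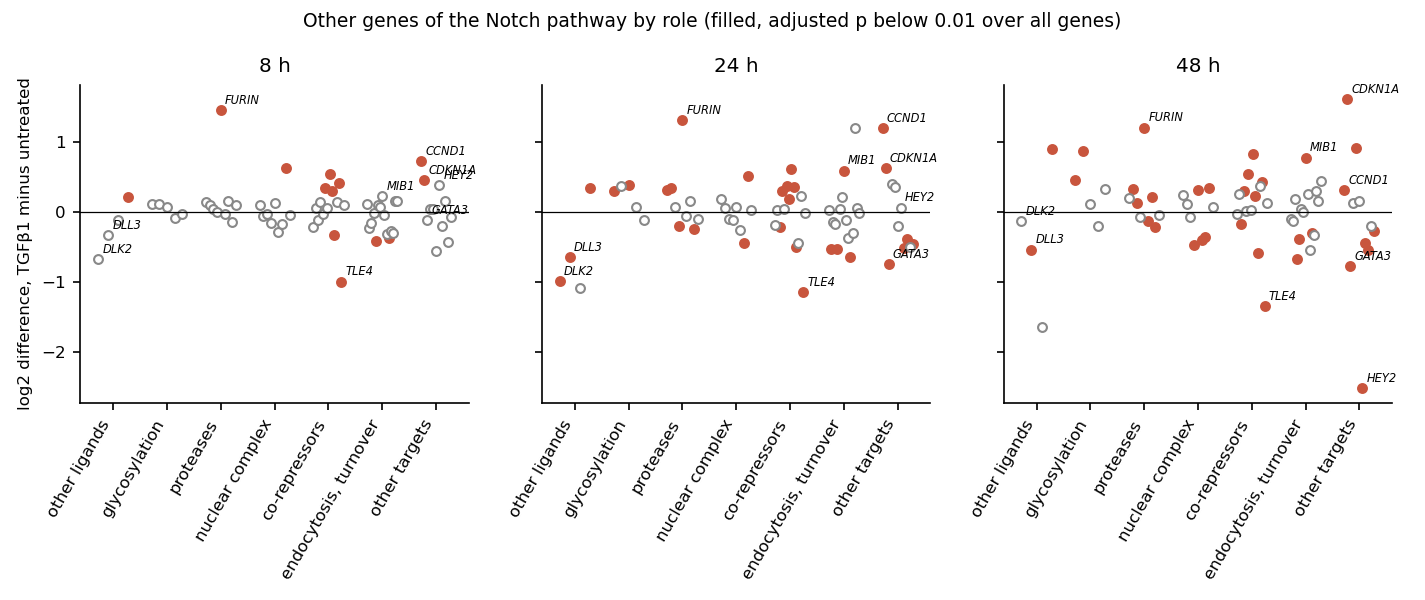
Log2 difference between TGFβ1 and untreated cells (vertical axis) of 67 other Notch pathway genes by role, at 8, 24 and 48 h, filled where the adjusted p over all tested genes was below 0.01, with names on genes picked by the rule. FURIN stood highest of the proteases at each time (1.20 at 48 h) and TLE4 lowest of the co-repressors (-1.35 at 48 h).

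The genes whose 8 group means ran most like those of 3 members were looked up among 11709 tested genes that reached 5 TPM in some group, by Pearson's r of log2(TPM + 0.1). For NOTCH3 they were ARHGEF6 (r = 0.948), DEPDC5 (0.944) and DHX38 (0.927). For JAG1 they included ASCC2 (0.967) and PRR16 (0.962), and for HES1 they were NUTF2 (0.986), PRSS3 (0.98) and CDK2AP1 (0.977). PRSS3 fell from 46.4 to 8.19 TPM in untreated cells and was at 23.3 TPM with TGFβ1 at 48 h. The r does not weigh the size of a change. Over the group means NUTF2 stayed within 169 to 231 TPM and DHX38 within 50.4 to 60.2 TPM. All these values share the same 24 libraries and are given as a description of likeness over 8 points.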

How the data were processed

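Total RNA of SK-MES-1 cells was sequenced in 24 libraries. The authors quantified transcripts of Ensembl release 79 (GRCh38) with kallisto 0.43.0 and deposited, per library, estimated counts and TPM for 173259 transcripts. The strandedness of the counting is not given in the sources used here. Transcripts were assigned to genes through GENCODE 44, and 17741 of them, without an entry there, were left out, so that 94.8 to 95.2% of the counts remained. The deposited estimated counts were added up over the transcripts of a gene and then rounded. Genes with at least 10 counts in at least 3 libraries (17453) entered limma voom (limma 3.58.1, edgeR 4.0.16 for TMM factors, R 4.3.3), with 1 mean for each of the 8 groups. Adjusted p are Benjamini-Hochberg values over all tested genes, two-sided, and log2 differences are on the log2 count scale. TPM deposited by the authors, also summed, serve for levels (mean ± SD). Intervals are 95%. The authors call the 3 samples of a group biological replicates, and no donor or culture is named in the labels, so p-values measure the spread between these samples. Alternatives were edgeR quasi-likelihood, DESeq2 1.42.0, counts scaled by transcript length, limma on log2 TPM with a pseudocount of 1 or 0.1, 4 scalings (DESeq2 size factors, library totals, upper quartile and 4 reference genes), no filter or 50 counts, a replicate block, only the groups compared, a threshold of 0.05 and leaving out each library. Coding transcripts only and leaving out 4 libraries were added after seeing the data. The scripts were tested on simulated counts. All members are named, other pathway genes by a call over 8 to 48 h and a mean log2 difference of at least 0.5. A few genes of the lists are not reported here. The members and the lists were chosen with earlier results of these data known.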

Additional observations from a re-analysis of the deposited data

Results flagged for a closer look

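These results are listed because the effect of TGFβ1 differed between 2 times, by a test of the change itself (limma voom, adjusted p over all genes). From 0 to 8 h the log2 difference between the arms rose by 0.38 for NOTCH2, by 0.97 for JAG1 and by 0.65 for HES1. From 8 to 24 h that of JAG1 changed by -0.33. From 24 to 48 h that of JAG1 changed by -0.38 and that of NOTCH3 by 1.68, which turned its sign. The NOTCH2 change was lost with library totals, on log2 TPM values and with only the groups compared (adjusted p = 0.01 to 0.046), the JAG1 changes after 8 h on log2 TPM values, and that from 8 to 24 h also with length-scaled counts and 4 reference genes. No outlier test was run on groups of 3 libraries. The libraries said above to stand apart were picked by their distance from the other 2 of their group.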

How the results depend on the processing

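Over single members, 2547 of the values computed without 1 library kept their direction and side of the threshold, 32 lost and 13 gained a call. Under the other alternatives 1503 kept both, 66 lost and 46 gained a call and 5 turned sign. All 5 turned with the 4 reference genes, which moved the median of all genes by 0.35 at 24 h and 48 h, by 0.26 over the 3 times and by 0.40 between 24 and 48 h within each arm: the mean over the 3 times of NOTCH3 (0.058), the untreated change from 24 to 48 h of JAG1 (0.073) and HES1 (0.16) and the treated one of NOTCH2 (0.29) and HES1 (0.31), each below the shift of its comparison. For the change of the difference from 0 to 8 h, 5 members in place of 3 passed without the 4 libraries, with the replicate block and at 0.05 (all genes 2074, 1598 and 2128 in place of 1376), 4 by DESeq2, and 2 with library totals, both log2 TPM fits and only the groups compared. From 8 to 24 h, 2 in place of 1 passed with 4 reference genes and at 0.05, and 0 with length-scaled counts and both log2 TPM fits. From 24 to 48 h, 1 in place of 2 passed on both log2 TPM fits. Treated cells from 0 to 8 h gave 3 in place of 5 on both log2 TPM fits and 2 with only the groups compared. From 24 to 48 h, untreated cells gave 2 in place of 4 on both log2 TPM fits, and treated cells 2 in place of 4 there, with length-scaled counts and with only the groups compared. The causes were not tested. Leaving out each library gave 0 members at 0 h, 5 to 6 at 8 h, 6 to 7 at 24 h, 5 to 8 at 48 h and 7 to 8 over the 3 times, 3 to 5, 1 and 2 for the 3 changes of the difference, 4 to 5 and 3 to 6 for 0 to 8 h untreated and treated, and 2 to 4 for 24 to 48 h in each arm. Of 12 same-number pairs 4 correlated above 0.1, all of them at 0 h and 24 h. Same-number pairs ran from 0.0718 to 0.301 at 0 h and 24 h and from -0.0472 to 0.0923 at 8 h and 48 h. Different-number pairs with replicate 2 ran from -0.248 to -0.0765 at 0 h and 24 h. Pairs of replicate 1 with replicate 3 ran from 0.0247 to 0.123 at those times, overlapping the same-number ones. Only replicate 2 thus clearly went together between the arms, at 0 h and 24 h. The main fit did not pair the samples. The replicate block changed the count of members by over 1.5 times only for the change from 0 to 8 h, where it added NOTCH3 (adjusted p = 0.0084) and HEY1 (0.0077), and it also called JAG2 at 8 h (-0.44, adjusted p = 0.0052) and 24 h (-0.48, adjusted p = 0.0025). Counts of all genes moved most with 4 reference genes (11187 against 7410 over the 3 times, 9282 against 5112 at 24 h, 9457 against 5686 at 48 h) and with only the groups compared (5260 against 2859 at 8 h, 2731 against 5112 at 24 h), and at 8 h without the 4 libraries (4785). Counts were low for DLL1, HEY1, HEY2 and DLK2, at most 127 per library.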
